A study of Mus musculus with 6 samples.

Results

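Fibro-adipogenic progenitor (FAP) markers were examined in cultures of primary mouse myoblasts, through 10 genes taken by symbol from the count and FPKM tables: Pdgfra, Dcn, Lum, Dpt, Pi16, Dpp4, Ly6a, Osr1, Thy1 and Fn1. All 10 were found among the 54532 genes of the tables, and all 10 were among the 14679 genes with enough counts to be tested. The cells came from hind-limb muscle of 3-week-old mice, digested with dispase and collagenase and strained, and the description of these cultures names no sort (the study sorted satellite cells of 2 reporter lines for other experiments), and they were grown in DMEM with 10% fetal bovine serum and FGF at 10 ug/ml, as the labels give it. Bulk RNA-seq was performed at day 2 on 3 WT libraries and 3 libraries labelled eIF5A-KO. The comparison asks which mRNA levels differ when eIF5A is deleted, a translation factor that carries the spermidine-derived amino acid hypusine.

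The knockout mice were tamoxifen-induced Pax7-CreERT2/+;eIF5A f/f, and the WT animals of the myoblast cultures were littermates. The study names Pax7-CreERT2 mice as WT controls in its text and Pax7+/+;eIF5A f/f mice in a figure legend, so that the sources used here do not settle whether these controls carried Cre or the floxed allele. Cre was driven from Pax7, a gene of satellite cells, the stem cells of muscle, and not of FAPs. Eif5a itself was at 664, 411 and 517 FPKM in WT replicates 1 to 3 and at 569, 610 and 444 FPKM in eIF5A-KO replicates 1 to 3 (fragments per kilobase of gene, scaled to library depth). Its log2 fold change, eIF5A-KO against WT, was 0.02, and it lay between -0.13 without WT replicate 2 and 0.23 without WT replicate 1. The level of the Eif5a transcript did not separate the genotypes, and which exons the floxed allele removes is not given in the sources used here, so the groups are called by their labels throughout. The study measured eIF5A mRNA in freshly isolated satellite cells and its protein by staining on cultured fibres, and reports from these that the knockout was established. Those preparations were other than the cultures read here. The labels do not say whether the 3 libraries of a group came from separate animals or cultures, and p-values therefore measure only the spread between these libraries.

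FAPs are mesenchymal stromal cells that lie between the fibres of skeletal muscle. They are recognised by the PDGF receptor alpha chain and, in mouse, by the surface antigen Sca-1. They can give rise to fibroblasts and adipocytes, deposit collagen and proteoglycan matrix after injury, and send signals to satellite cells.

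Each library held 16281216 to 17734551 counts, of which the 10 markers together took 0.268% to 0.359%. WT replicate 1 stood apart: mitochondrially encoded transcripts took 5.75% of its counts against 2.11% to 3.50% in the other 5 libraries, and it lay at -52.8 on the first principal component (39.1% of the variance), where WT replicate 2 lay at 40.5 and the remaining libraries between -8.75 and 19.2. Values without it are given beside the results that it moved most; in that fit 0.372% of 15056 tested genes had an adjusted p under 0.05 in edgeR, 10.2% had an unadjusted one and 49.2% were below 0.

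None of the 10 FAP markers differed between the genotypes beyond the spread between replicates. By edgeR's quasi-likelihood test, 0 of 10 had an adjusted p under 0.05, where 0.0204% of all tested genes did (3 of 14679). At an unadjusted p under 0.05 there were also 0 of 10, where 6.76% of all tested genes passed, and DESeq2 and limma-voom likewise gave 0 of 10 at either threshold. The FPKM values of the 2 groups overlapped for all 10 markers, and so did their CPM (counts scaled to library size). In CPM, 12.5% of all tested genes had groups that did not overlap, and the counts of such genes given below were also taken in CPM. The log2 fold change was below 0 for 6 markers and above 0 for 4, beside 51.7% of all tested genes below 0, and its median was -0.12, beside -0.01 over all tested genes. In bulk samples fewer cells of a type and less RNA per cell cannot be told apart, so these values describe the culture as a whole.

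**Figure D1:**
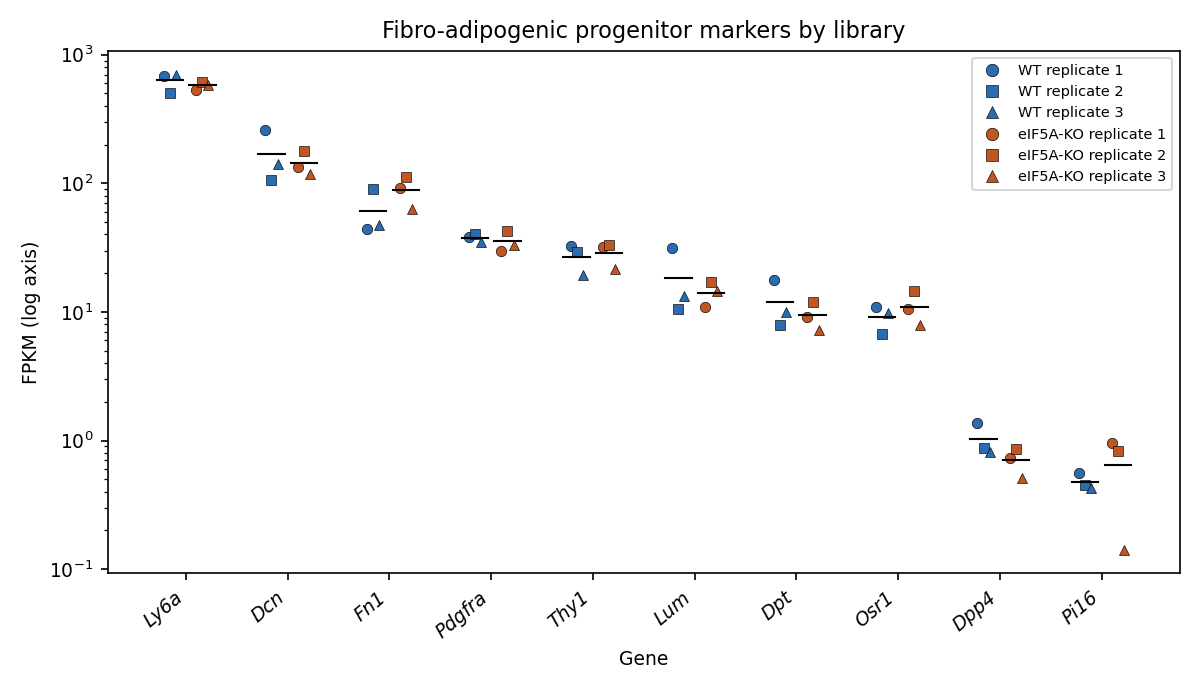
FPKM of each of the 10 FAP markers (log axis) in the 3 WT libraries (blue) and the 3 eIF5A-KO libraries (orange), with the replicate given by the marker shape and the mean of each group by a short line. The 2 groups overlap for every gene, from Ly6a between 507 and 701 FPKM to Pi16 between 0.142 and 0.958 FPKM.

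All 10 markers were detected in every library of these myoblast cultures, although at very different levels. By mean FPKM, which is scaled to gene length, the order was Ly6a, Dcn, Fn1, Pdgfra, Thy1, Lum, Dpt, Osr1, Dpp4 and Pi16. Ly6a ranked 60 among the 14679 tested genes, within the top 0.409%, Dcn was within the top 2.31%, Fn1 within the top 5.08% and Pdgfra within the top 10.8%. Thy1, Lum, Dpt and Osr1 followed within the top 14.3% to 33.7%, whereas Dpp4 and Pi16 lay at 82.4% and 87.7% from the top. Only 3 neighbours in that order had separate ranges over the 6 libraries: Ly6a above Dcn, Fn1 above Pdgfra (43.8 against 42.9 FPKM at the nearest) and Osr1 above Dpp4. Dcn and Fn1, Pdgfra and Thy1, Thy1 and Lum, Lum and Dpt, Dpt and Osr1, and Dpp4 and Pi16 had overlapping ranges, and Dpt was above Osr1 in 3 of the 6 libraries.

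The surface proteins of FAPs include the receptor by which they are usually sorted. Pdgfra, the receptor tyrosine kinase for PDGF ligands, was at 38.0, 40.1 and 34.7 FPKM in WT replicates 1 to 3 and at 29.9, 42.9 and 33.0 FPKM in eIF5A-KO replicates 1 to 3. The highest and the lowest value were both in the eIF5A-KO group, and all WT values lay between them. The means were 37.6 ± 2.74 (SD, n = 3) and 35.3 ± 6.80 FPKM (SD, n = 3), with a log2 fold change of -0.10 (SE 0.19; edgeR adjusted p = 0.966). The 95% interval of the ratio of eIF5A-KO to WT ran from 0.693 to 1.26. Pdgfra (ENSMUSG00000029231) lies on mm10 at chr5:75152292-75198215 on the plus strand, and its annotated transcripts have up to 23 exons.

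Ly6a encodes Sca-1, a small GPI-anchored antigen that also marks endothelial and blood progenitor cells in mouse. It was at 684, 507 and 701 FPKM in WT replicates 1 to 3 and at 535, 611 and 582 FPKM in eIF5A-KO replicates 1 to 3. The 3 eIF5A-KO values lay within the WT range. Means were 631 ± 107 (SD, n = 3) and 576 ± 38.5 FPKM (SD, n = 3), and the ratio of eIF5A-KO to WT had a 95% interval of 0.673 to 1.23 (log2 fold change -0.14, SE 0.19; edgeR adjusted p = 0.949). The log2 fold change was -0.27 without WT replicate 2, -0.07 without WT replicate 1 and -0.06 without WT replicate 3. With a ratio of 1.38 between its highest and lowest library, Ly6a varied least among the 10 markers. Ly6a (ENSMUSG00000075602; chr15:74994877-74998031, minus strand) shares 191 bases at 92.1% identity with transcripts of Ly6c1 and 171 bases at 90.1% with those of Ly6c2, and since the counting of reads that map to several genes is not described, its level is uncertain to that extent.

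Thy1, another GPI-anchored surface glycoprotein, found on fibroblasts and also on neurons and T cells, was at 32.6, 29.0 and 19.3 FPKM in WT replicates 1 to 3 and at 31.8, 33.1 and 21.7 FPKM in eIF5A-KO replicates 1 to 3. Replicate 3 was the lowest of both groups. The log2 fold change was 0.09 (SE 0.24; 95% interval -0.46 to 0.64; edgeR adjusted p = 0.976). It was -0.10 without WT replicate 3 and -0.0081 without eIF5A-KO replicate 2, so that leaving out either library turned its sign. Thy1 (ENSMUSG00000032011) lies at chr9:44043384-44048579 on the plus strand.

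Dpp4 and Pi16 mark a subset of mesenchymal cells that resembles adventitial fibroblasts, and they were the 2 markers at the lowest levels. Dpp4, a cell-surface dipeptidyl peptidase also called CD26, was at 1.37, 0.880 and 0.816 FPKM in WT replicates 1 to 3 and at 0.729, 0.866 and 0.509 FPKM in eIF5A-KO replicates 1 to 3. WT replicate 1 was the highest library and eIF5A-KO replicate 3 the lowest, and eIF5A-KO replicate 2 lay above WT replicate 3. These levels rest on 136, 106 and 88 counts in WT and on 76, 93 and 57 counts in eIF5A-KO. The log2 fold change was -0.54 (SE 0.30; 95% interval -1.22 to 0.14), the adjusted p of edgeR was 0.820, the smallest among the 10 markers, and without WT replicate 1 the log2 fold change was -0.26. Dpp4 (ENSMUSG00000035000) lies at chr2:62330073-62412231 on the minus strand.

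Pi16 encodes peptidase inhibitor 16, a secreted or membrane-anchored protein of fibroblast subsets. It was at 0.558, 0.447 and 0.426 FPKM in WT replicates 1 to 3 and at 0.958, 0.827 and 0.142 FPKM in eIF5A-KO replicates 1 to 3. The eIF5A-KO libraries thus held both the 2 highest values and the lowest, a ratio of 6.77 that was the largest among the markers. The counts were 35, 34 and 29 in WT and 63, 56 and 10 in eIF5A-KO, and a count of 10 carries a counting error of 31.6% on its own. The log2 fold change was 0.40 (SE 0.54; 95% interval -0.82 to 1.61; edgeR adjusted p = 0.948). It was 0.86 with an unadjusted p of 0.0244 in edgeR when eIF5A-KO replicate 3 was left out and 0.02 when eIF5A-KO replicate 1 was. The size also depended on the method, at 0.012 with limma-voom and 0.11 with limma on log2(FPKM + 1), all 6 libraries included. In the file Pi16 (ENSMUSG00000024011) spans chr17:29318877-29329413 on the plus strand, whereas the GENCODE annotation of GRCm38 gives chr17:29317680-29330593. It shares 225 bases of transcript at 100% identity with AC162182.1, a gene that overlaps it on the opposite strand, so that reads there cannot be told apart and its low counts are uncertain to that extent.

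Osr1 is a zinc-finger transcription factor of embryonic limb connective tissue that is expressed again in FAPs after injury. Its level was 10.9, 6.78 and 9.87 FPKM in WT replicates 1 to 3 and 10.5, 14.5 and 7.92 FPKM in eIF5A-KO replicates 1 to 3. WT replicate 2 was the lowest and eIF5A-KO replicate 2 the highest of the 6 libraries, with the other 4 in between in no order of genotype. Means were 9.19 ± 2.16 (SD, n = 3) and 11.0 ± 3.32 FPKM (SD, n = 3), with a log2 fold change of 0.25 (SE 0.26; 95% interval -0.35 to 0.84; edgeR adjusted p = 0.935). It was 0.0059 without eIF5A-KO replicate 2, 0.07 without WT replicate 2, 0.40 without WT replicate 1 and 0.44 without eIF5A-KO replicate 3. Osr1 (ENSMUSG00000048387) lies at chr12:9570116-9581500 on the plus strand and has up to 3 exons.

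The remaining 4 markers are proteins of the extracellular matrix, and 3 of them shared a pattern over the libraries that did not follow genotype. Dcn encodes decorin, a small leucine-rich proteoglycan that binds collagen fibrils. It was at 260, 106 and 142 FPKM in WT replicates 1 to 3 and at 134, 177 and 117 FPKM in eIF5A-KO replicates 1 to 3. Lum encodes lumican, a proteoglycan of the same family, and was at 31.3, 10.5 and 13.2 FPKM in WT replicates 1 to 3 and at 10.8, 17 and 14.6 FPKM in eIF5A-KO replicates 1 to 3. Dpt encodes dermatopontin, a small matrix protein that binds decorin, and was at 17.7, 7.97 and 9.96 FPKM in WT replicates 1 to 3 and at 9.14, 11.9 and 7.17 FPKM in eIF5A-KO replicates 1 to 3. For all 3 genes WT replicate 1 was the highest library and eIF5A-KO replicate 2 the second highest. The lowest library was WT replicate 2 for Dcn and Lum and eIF5A-KO replicate 3 for Dpt, and WT replicates 1 and 2 were far apart for all 3 genes.

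Accordingly, the log2 fold changes of these 3 genes were negative with all 6 libraries and positive without WT replicate 1. Dcn went from -0.26 (SE 0.33; edgeR adjusted p = 0.947) to 0.20, Lum from -0.38 (SE 0.38; adjusted p = 0.923) to 0.25, and Dpt from -0.34 (SE 0.31; adjusted p = 0.917) to 0.07. With this library left out, 3 of the 10 markers in place of 6 had a value below 0, and the median of the 10 was 0.23 in place of -0.12. The share of mitochondrially encoded transcripts was also highest in WT replicate 1 and second highest in eIF5A-KO replicate 2 (5.75% and 3.50%), and its part in the levels of Dcn, Lum and Dpt was not tested. In the plot of levels relative to each gene's mean, WT replicate 1 was at 0.80 for Dcn, 1.05 for Lum, 0.80 for Dpt and 0.73 for Dpp4 on the log2 scale.

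**Figure D2:**
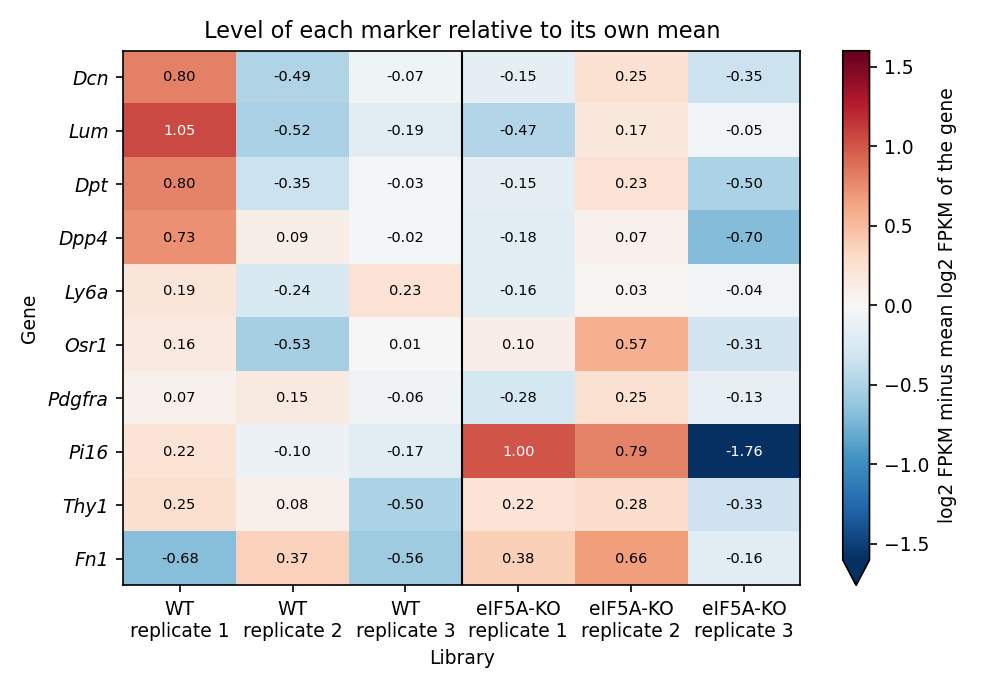
Level of each FAP marker in each library as log2 FPKM minus the mean log2 FPKM of that gene over the 6 libraries, coloured from blue (below the mean) to red (above) and printed in each cell, with a vertical line between the genotypes. Dcn, Lum, Dpt and Dpp4 are highest in WT replicate 1 (0.73 to 1.05), Fn1 is lowest there (-0.68), and Pi16 spans 1.00 to -1.76 within the eIF5A-KO libraries.

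Dcn and Lum are neighbours in the genome. Dcn (ENSMUSG00000019929; chr10:97479609-97518143) ends 46985 bases before Lum (ENSMUSG00000036446; chr10:97565128-97572703) starts, both are on the plus strand, and the annotation places 0 genes between them. Over the 6 libraries the Pearson correlation of log2 CPM (counts scaled to library size) was 0.920 for Dcn with Lum, 0.864 for Lum with Dpt and 0.980 for Dcn with Dpt, although Dpt (ENSMUSG00000026574; chr1:164796644-164824266, plus strand) is on another chromosome. Without WT replicate 1 these were 0.684, 0.455 and 0.931, so that Dcn and Dpt were the pair whose likeness rested least on that library. Dpp4 was at 0.881 with Dpt and 0.775 with Dcn, and at 0.663 and 0.346 without WT replicate 1. Osr1 was at 0.695 with Dcn and at 0.983 without WT replicate 1. These correlations are descriptions over 6 points that share their libraries, and the pairs were read after the values were seen.

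Fn1 encodes fibronectin, a glycoprotein that binds integrins and collagen and is made by many cell types, myoblasts among them. It was at 43.8, 90.7 and 47.5 FPKM in WT replicates 1 to 3 and at 91.3, 111 and 62.8 FPKM in eIF5A-KO replicates 1 to 3. WT replicate 2 was close to eIF5A-KO replicate 1 and above eIF5A-KO replicate 3, while the other 2 WT libraries lay below all eIF5A-KO libraries. The means were 60.7 ± 26.1 (SD, n = 3) and 88.4 ± 24.4 FPKM (SD, n = 3), and the log2 fold change was 0.54 (SE 0.32; 95% interval -0.18 to 1.26; edgeR adjusted p = 0.847). Without WT replicate 2 it was 0.95, with an unadjusted p of 0.00468 and an adjusted p of 0.405 in edgeR, the lowest adjusted p that any marker had under the 17 alternatives tried. Without WT replicate 1 it was 0.36. Over the 6 libraries Fn1 was at r = -0.748 with Ly6a (-0.639 without WT replicate 1), at -0.537 with Lum (-0.0036 without it) and at 0.495 with Thy1 (0.980 without it). Fn1 (ENSMUSG00000026193; chr1:71585520-71653200, minus strand, up to 46 exons) overlaps Apol7d on the opposite strand over 198 bases of transcript, and Apol7d had 14 counts in all 6 libraries together.

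**Figure D3:**
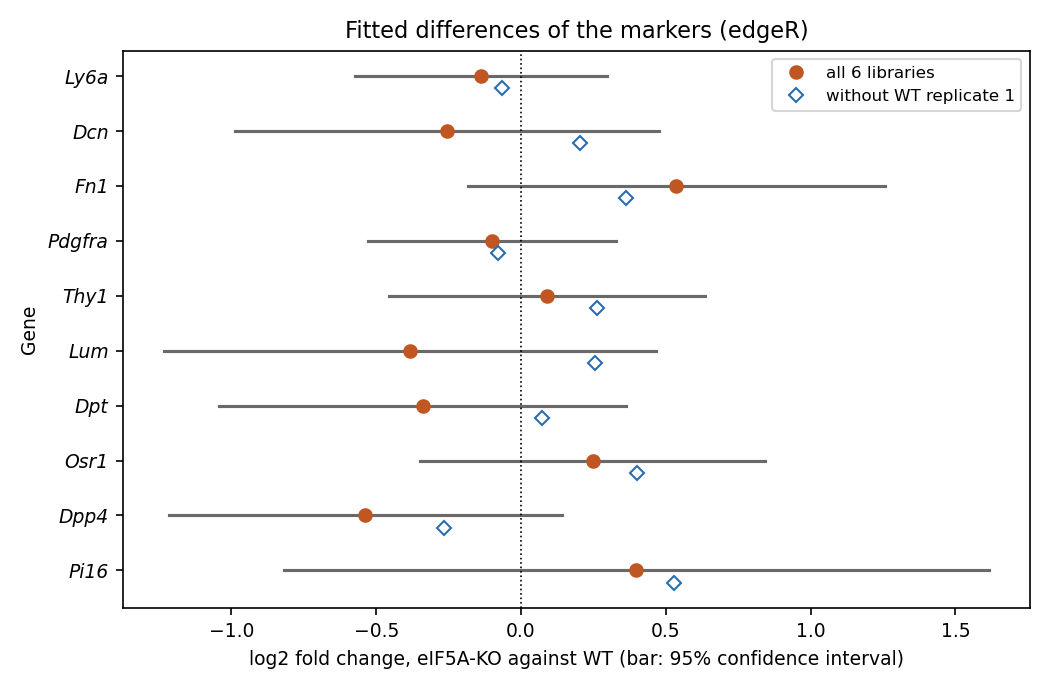
Log2 fold change of each FAP marker, eIF5A-KO against WT, from edgeR with all 6 libraries (filled circles, bars for the 95% confidence interval) and without WT replicate 1 (open diamonds). Every interval includes 0, and Dcn, Lum and Dpt lie at -0.26, -0.38 and -0.34 with that library and at 0.20, 0.25 and 0.07 without it.

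Promoter windows were available in the RefSeq table (GRCm38.p6, 250 bases before to 50 after the annotated start) for 4 of the 10 markers. Those of Dpt and Dpp4, which were both highest in WT replicate 1, are shown beside that of Pdgfra, whose highest and lowest library differed by a ratio of 1.44. Capitals mark matches, on either strand, to AP-1 (TGANTCA), TEAD (GGAATG), E-box (CANNTG), TATA box (TATAAA) and GC box (GGGCGG) letters. The windows are chr1:164796413-164796712 on the plus strand for Dpt, chr2:62412182-62412481 on the minus strand for Dpp4 and chr5:75152001-75152300 on the plus strand for Pdgfra.
Dpt promoter: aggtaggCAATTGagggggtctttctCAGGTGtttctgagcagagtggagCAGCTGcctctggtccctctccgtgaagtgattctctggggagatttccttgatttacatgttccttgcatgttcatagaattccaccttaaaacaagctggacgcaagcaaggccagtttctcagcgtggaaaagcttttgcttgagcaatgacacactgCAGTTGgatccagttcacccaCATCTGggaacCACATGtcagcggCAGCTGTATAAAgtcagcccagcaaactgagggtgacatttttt
Dpp4 promoter: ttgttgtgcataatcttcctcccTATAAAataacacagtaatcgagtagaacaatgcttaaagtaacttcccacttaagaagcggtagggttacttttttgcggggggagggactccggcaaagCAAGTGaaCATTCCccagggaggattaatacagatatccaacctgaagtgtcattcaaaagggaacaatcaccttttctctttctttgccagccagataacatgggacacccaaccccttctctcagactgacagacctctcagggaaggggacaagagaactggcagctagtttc
Pdgfra promoter: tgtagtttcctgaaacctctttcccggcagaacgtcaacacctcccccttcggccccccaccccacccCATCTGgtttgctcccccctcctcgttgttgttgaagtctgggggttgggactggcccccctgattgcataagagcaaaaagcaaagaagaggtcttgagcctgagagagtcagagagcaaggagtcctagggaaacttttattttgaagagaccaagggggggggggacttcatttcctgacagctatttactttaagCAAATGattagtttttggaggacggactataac
Dpt held 7 E-box matches and 1 TATA box match, the last of which joins an E-box match just after the annotated start. Dpp4 held 1 TEAD, 1 E-box and 1 TATA box match, Pdgfra held 2 E-box matches, and the window of Pi16, which is not shown, held 1 E-box match. The letters of AP-1 and of the GC box were in none of the 4 windows. Of all 32851 windows in the table, 72.3% held an E-box match, 13.6% a TATA box, 14.7% TEAD, 7.81% AP-1 and 35.7% GC box letters. A match is a description of the sequence only.

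Other genes of the same families were read next to the markers. Among the 7 PDGF ligands and receptors, all tested, 5 were above 0 and 2 below, the median log2 fold change was 0.27, and 1 had an unadjusted p under 0.05, none an adjusted one in edgeR, beside 6.76% of all tested genes with such an unadjusted p. That gene was Pdgfrb, the beta receptor, typical of pericytes and smooth muscle as well as of stromal cells. It was at 29.2, 44.6 and 39.5 FPKM in WT replicates 1 to 3 and at 75.4, 66.7 and 57.8 FPKM in eIF5A-KO replicates 1 to 3, with no overlap between the groups (log2 fold change 0.81, adjusted p = 0.398 in edgeR). Pdgfra, in contrast, overlapped, and the difference between the 2 receptors' fold changes was not tested in the count model. Among the ligands, Pdgfa, which binds the alpha receptor, was at 0.37 on the log2 fold change scale (edgeR, adjusted p = 0.815) and Pdgfd at 0.27 (adjusted p = 0.886). Pdgfa was at 0.18 without eIF5A-KO replicate 1 and at 0.52 without eIF5A-KO replicate 2. Pdgfd was at 0.16 without eIF5A-KO replicate 3 and at 0.37 without WT replicate 3. The median of the 7 genes was 0.11 without eIF5A-KO replicate 1 and 0.37 without WT replicate 3. Pdgfrb is also a marker of mural cells and is itself on that list, so that its own values enter the counts and sums given here. On the list 9 of 9 genes were above 0 (51.7% of all tested genes were below 0), 4 with an unadjusted p under 0.05 in edgeR (6.76% of all tested genes). Their summed level was 107, 188 and 152 FPKM in WT and 212, 184 and 222 FPKM in eIF5A-KO. Without WT replicate 1, the lowest, 7 of 9 were above 0, Notch3 and Mcam being below it, and 4 again had an unadjusted p under 0.05. The part of mural cells in the level of Pdgfrb was not tested.

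**Figure D4:**
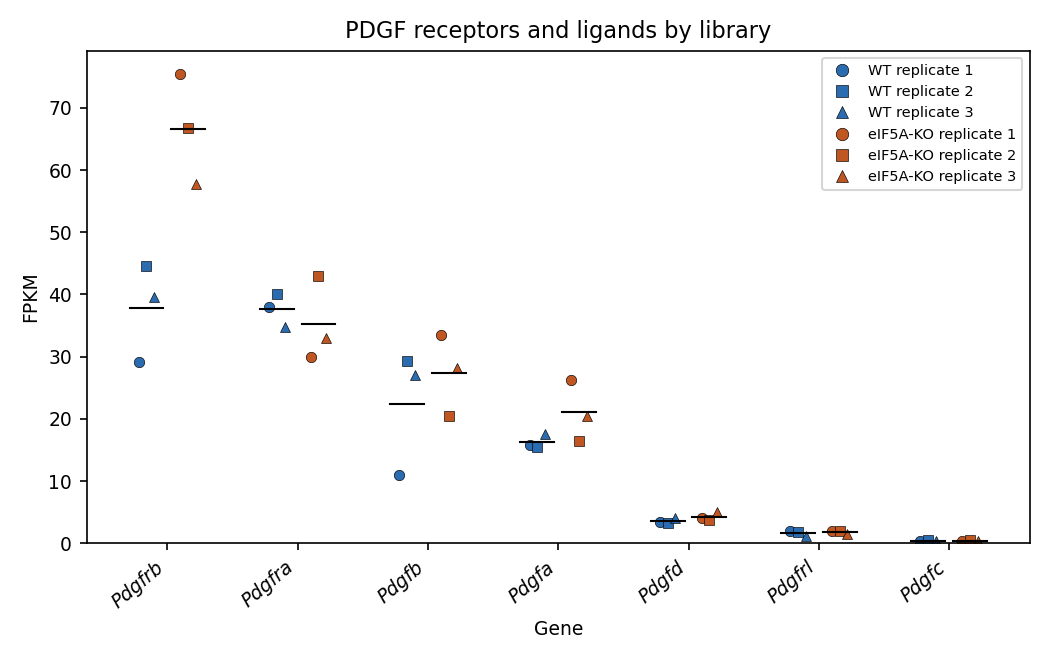
FPKM (linear axis) of the PDGF receptors and ligands in the 3 WT libraries (blue) and the 3 eIF5A-KO libraries (orange), with the replicate given by the marker shape and the group mean by a short line. Pdgfrb lies at 29.2 to 44.6 FPKM in WT and at 57.8 to 75.4 FPKM in eIF5A-KO, whereas the Pdgfra values of WT lie inside the eIF5A-KO range of 29.9 to 42.9 FPKM.

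The small leucine-rich proteoglycans, the family of decorin and lumican, had values on both sides of 0. Of 13 genes 9 were tested, of which 7 were above 0 and 2 below (Dcn and Lum), with a median log2 fold change of 0.08, beside 51.7% of all tested genes below 0. The 1 gene of 9 with an unadjusted p under 0.05 in edgeR, beside 6.76% of all tested genes, was Bgn, which encodes biglycan, the closest relative of decorin. It was at 140, 132 and 142 FPKM in WT replicates 1 to 3 and at 262, 261 and 211 FPKM in eIF5A-KO replicates 1 to 3. The WT values were close together and the eIF5A-KO values all above them (log2 fold change 0.82, adjusted p = 0.362 in edgeR), and Bgn passed the adjusted threshold with DESeq2 (adjusted p = 0.00222) and without the low-count filter in edgeR (adjusted p = 0.0446). Ecm2 and Prelp had log2 fold changes of 0.60 (adjusted p = 0.858) and 0.30 (adjusted p = 0.916) in edgeR. That of Ecm2 was 0.15 with limma on log2(FPKM + 1) and 0.85 in edgeR without WT replicate 3. That of Prelp was 0.11 without WT replicate 1 and 0.52 without WT replicate 2.

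In the Ly6 family 5 of 11 genes were tested, 2 above and 3 below 0, with a median of -0.06 and none with an unadjusted p under 0.05 in edgeR. Over all tested genes 51.7% were below 0 and 6.76% had such an unadjusted p. Ly6a was followed in level by Ly6e, a broadly expressed antigen (145, 210 and 283 FPKM in WT, 275, 243 and 304 FPKM in eIF5A-KO), and by Ly6c1, an endothelial and leukocyte antigen (122, 146 and 185 FPKM in WT, 172, 149 and 177 FPKM in eIF5A-KO). Ly6c1 is named, after its values were seen, for the sequence it shares with Ly6a. The log2 fold changes of Ly6e and Ly6c1 were 0.36 (adjusted p = 0.881) and 0.13 (adjusted p = 0.954) in edgeR, or 0.16 and 0.0018 without WT replicate 1 and 0.62 and 0.30 without WT replicate 3. Ly6c2, the other gene that shares sequence with Ly6a, was at 0.116, 2.51 and 0.406 FPKM in WT and at 0.0664, 0.795 and 0.288 FPKM in eIF5A-KO, highest in replicate 2 of both groups. Its log2 fold change was -1.33 (adjusted p = 0.883) in edgeR and 0.47 without WT replicate 2, and Ly6d and Lypd2 were at 0 in all libraries. Of the dipeptidyl peptidases 5 of 6 genes were tested, 2 above and 3 below 0 (51.7% of all tested genes were below 0), with a median of -0.05. None had an unadjusted p under 0.05 in edgeR, beside 6.76% of all tested genes. The most abundant were the cytosolic enzymes Dpp9 and Dpp8, with log2 fold changes of 0.18 and -0.15 (-0.02 and -0.22 without WT replicate 1), and Fap, named after its values were seen, the fibroblast activation protein and nearest relative of Dpp4, was at 2.88, 1.27 and 1.36 FPKM in WT replicates 1 to 3 and at 1.56, 2.16 and 1.6 FPKM in eIF5A-KO replicates 1 to 3. Fap, like Dpp4, was highest in WT replicate 1, and its log2 fold change was -0.05 with that library and 0.43 without it.

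A second list, of 24 FAP and mesenchymal genes other than the 10 markers, was read beside them, and the difference between the lists was not tested. Of 22 tested genes 16 were above 0 and 6 below, with a median log2 fold change of 0.21 beside -0.12 for the 10 markers, and 6 of 22 (27.3%) had an unadjusted p under 0.05, all of them above 0, beside 6.76% of all tested genes. None had an adjusted p under 0.05 in edgeR. Groups did not overlap for 5 of the 22, beside 12.5% of all tested genes. The count of 6 was 3 without eIF5A-KO replicate 1, where 3.88% of all tested genes passed, and 9 without WT replicate 1, where 10.2% did. The median was 0.10 without WT replicate 3 and 0.45 without eIF5A-KO replicate 3.

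Hic1, a transcription factor of quiescent mesenchymal progenitors in muscle, was at 5.85, 7.11 and 6.92 FPKM in WT replicates 1 to 3 and at 9.48, 10.4 and 9.71 FPKM in eIF5A-KO replicates 1 to 3. All eIF5A-KO values were above all WT values (log2 fold change 0.56, adjusted p = 0.484 in edgeR). The 2 chains of type I collagen, the main fibrillar collagen of connective tissue, were also higher in all eIF5A-KO libraries than in all WT libraries. Col1a2 was at 27.3, 38.7 and 32.3 FPKM in WT and at 59.3, 59.9 and 42.2 FPKM in eIF5A-KO (log2 fold change 0.71, adjusted p = 0.495 in edgeR). Col1a1 was at 16.5, 28.7 and 19.7 FPKM in WT and at 30.9, 37.7 and 38.8 FPKM in eIF5A-KO (log2 fold change 0.72, adjusted p = 0.504 in edgeR). The other 3 with an unadjusted p under 0.05 in edgeR, named after their values were seen, were Mmp2, a matrix metalloproteinase (0.66, adjusted p = 0.560), Twist2, a mesenchymal transcription factor (0.85, adjusted p = 0.628), and Pcolce, an enhancer of procollagen processing (0.54, adjusted p = 0.710), each given as a log2 fold change. The 6 genes of the list below 0, named after their values were seen, were Gli1 (-0.33), Scara5 (-0.14), Col3a1 (-0.14), Adamts5 (-0.09), Cxcl12 (-0.04) and Tcf7l2 (-0.02). Of these, the collagen gene Col3a1 was at 21.9, 53.1 and 31.8 FPKM in WT and at 30.1, 36.9 and 30.7 FPKM in eIF5A-KO. The list's most abundant genes, Serpinf1 and Gsn, had log2 fold changes of 0.31 (adjusted p = 0.863) and 0.37 (adjusted p = 0.836) in edgeR. That of Gsn was 0.16 without eIF5A-KO replicate 1 and 0.54 without eIF5A-KO replicate 3. Most markers of mural and endothelial cells, which can also express collagens, were above 0 as well. The summed endothelial level was 364, 743 and 708 FPKM in WT and 861, 644 and 886 FPKM in eIF5A-KO, so that only WT replicate 1 lay outside the eIF5A-KO range, and the part of these cells in these levels was not tested.

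**Figure D5:**
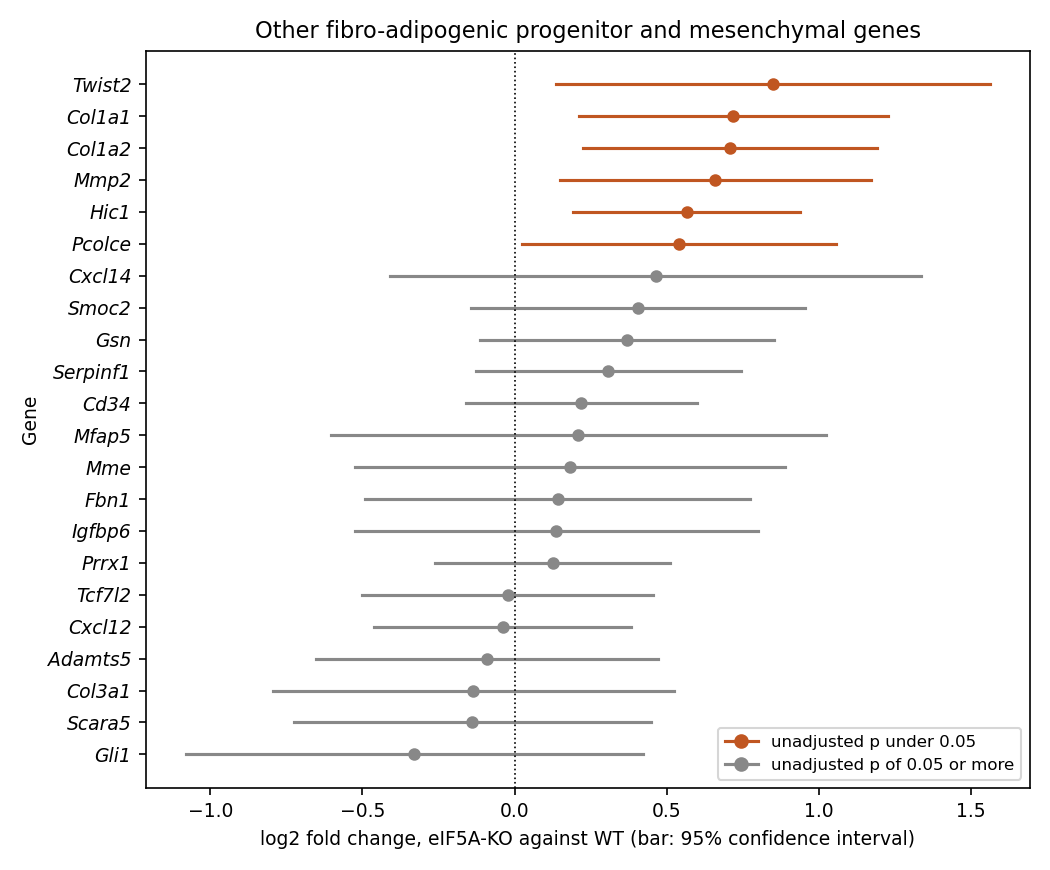
Log2 fold change, eIF5A-KO against WT, of the 22 tested genes of the second list of FAP and mesenchymal genes, with bars for the 95% confidence interval from edgeR, orange where the unadjusted p was under 0.05. The 6 orange genes all lie above 0, between 0.54 (Pcolce) and 0.85 (Twist2), and the median of the 22 is 0.21.

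FAPs can turn into myofibroblasts or adipocytes, and genes of both fates were read from fixed lists. Of 11 tested genes of activated fibroblasts 8 were above 0 and 3 below (median log2 fold change 0.19), 1 with an unadjusted and none with an adjusted p under 0.05 in edgeR, beside 6.76% of all tested genes with such an unadjusted p and 51.7% below 0. Without WT replicate 1 all 11 were above 0 (median 0.43), 4 with an unadjusted and 1 (Postn) with an adjusted p under 0.05 in edgeR (10.2% and 0.372% of all tested genes). Without eIF5A-KO replicate 1 all 11 were above 0 as well (median 0.20), but 0 had an unadjusted p under 0.05 (3.88% of all tested genes). Without WT replicate 3, 4 of the 11 were below 0 (median 0.11). With all libraries the gene with an unadjusted p under 0.05 was Tgfb1, a ligand that drives matrix production, at 14.0, 22.3 and 21.6 FPKM in WT replicates 1 to 3 and 33.4, 28.4 and 27.6 FPKM in eIF5A-KO replicates 1 to 3 (log2 fold change 0.62, adjusted p = 0.557 in edgeR). Postn, which encodes the matrix protein periostin, was at 27.7, 9.47 and 12.5 FPKM in WT and at 27.7, 26.1 and 28.7 FPKM in eIF5A-KO. Its WT replicate 1 stood with the eIF5A-KO libraries. The log2 fold change of Postn was 0.72 (adjusted p = 0.793 in edgeR) with that library and 1.32 (adjusted p = 0.0150) without it. Tnc, which encodes the matrix glycoprotein tenascin-C, and Lox, a collagen cross-linking enzyme, had log2 fold changes of 0.49 (adjusted p = 0.763) and 0.38 (adjusted p = 0.876) in edgeR. Both overlapped between the groups, Lox through WT replicate 1 alone, and the log2 fold change of Lox was 0.64 without WT replicate 1 and 0.15 without WT replicate 3. Timp1, a metalloproteinase inhibitor and the most abundant of the list, was at 1377, 423 and 466 FPKM in WT and at 840, 1165 and 570 FPKM in eIF5A-KO, with WT replicate 1 first and eIF5A-KO replicate 2 second, as for Dcn. Its log2 fold change was 0.17 with all libraries and 0.95 without WT replicate 1.

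Of the 10 adipogenic genes, all tested, 8 were above 0 and 2 below, the median log2 fold change was 0.37, and 3 (30%) had an unadjusted p under 0.05 in edgeR, all above 0 and with no overlap between groups, none with an adjusted p under 0.05. Over all tested genes 6.76% had such an unadjusted p and 12.5% had groups that did not overlap. Pparg, the nuclear receptor that directs fat cell formation, was at 8.17, 6.57 and 8.93 FPKM in WT replicates 1 to 3 and at 18.6, 12.7 and 13.8 FPKM in eIF5A-KO replicates 1 to 3. The lowest eIF5A-KO value was above the highest WT value (log2 fold change 0.92, adjusted p = 0.362 in edgeR), and Pparg passed the adjusted threshold with DESeq2 (adjusted p = 0.0233) and without the low-count filter in edgeR (adjusted p = 0.00791). Cebpb, a transcription factor that acts early in adipogenesis and in many other settings, was at 171, 184 and 185 FPKM in WT and at 372, 257 and 219 FPKM in eIF5A-KO (log2 fold change 0.64, adjusted p = 0.557 in edgeR). The log2 fold change of Cebpb was 0.40 without eIF5A-KO replicate 1 and 0.80 without eIF5A-KO replicate 3. Lpl, which encodes lipoprotein lipase, was at 14.6, 15.8 and 20.7 FPKM in WT and at 26.2, 22.6 and 24.9 FPKM in eIF5A-KO (log2 fold change 0.52, adjusted p = 0.573 in edgeR). Fabp4, a fatty acid carrier of adipocytes and of endothelium, overlapped between groups (log2 fold change 0.31, adjusted p = 0.910 in edgeR). The 2 genes below 0 on that scale, named after their values were seen, were Adipoq (-0.77) and Plin1 (-0.08), and both overlapped between groups. Adipoq was at 3.73, 2.13 and 8.74 FPKM in WT and at 2.02, 1.88 and 4.58 FPKM in eIF5A-KO. It was below 0 under every alternative. Without the low-count filter, 1 gene below 0 had an unadjusted p under 0.05 in edgeR (6.32% of all tested genes). The same count held with the replicate block (5.96%) and without WT replicate 2 (8.82%). Without WT replicate 1, 8 of the 10 adipogenic genes were again above 0 and 3 had an unadjusted p under 0.05 in edgeR (10.2% of all tested genes), with a median of 0.28. Without eIF5A-KO replicate 1, 9 of 10 were above 0 and 1 had such an unadjusted p (3.88% of all tested genes), with a median of 0.22. The median was 0.60 without WT replicate 3. Endothelial and mural markers were above 0 in 10 of 10 and 9 of 9 cases with medians of 0.38 and 0.50 (9 of 10 and 7 of 9, medians 0.18 and 0.27, without WT replicate 1). Of the myogenic markers 8 of 9 were below 0 (9 of 10 without WT replicate 1 and 5 of 9 without WT replicate 2). The part of these cells in the adipogenic values was not tested.

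Markers of the other cell types that such a culture can hold were read as whole lists. The 10 FAP markers summed to 800 to 1120 FPKM in WT and to 847 to 1021 FPKM in eIF5A-KO. Of the myogenic markers, which define the labelled cell type, 1 of 9 tested was above and 8 below 0, beside 51.7% of all tested genes below 0. Their sums were 236 to 558 FPKM in WT and 200 to 370 FPKM in eIF5A-KO. Without WT replicate 2, 5 of 9 were below 0, beside 49.1% of all tested genes, and the median was -0.30 in place of -0.53. With all libraries 3 of the 8 below 0 had an unadjusted p under 0.05 in edgeR, beside 6.76% of all tested genes. Those 3 were Met, the HGF receptor of satellite cells, Myog, the transcription factor of myoblast differentiation, and Pax7, with log2 fold changes of -1.13 (adjusted p = 0.331), -2.91 (adjusted p = 0.362) and -1.49 (adjusted p = 0.484) in edgeR. The groups did not overlap for Met and Myog, and without WT replicate 1 all 3 passed the adjusted threshold in edgeR (adjusted p = 0.0209, 0.0182 and 0.0278). Without WT replicate 2 none of the 3 passed it, and the log2 fold changes of Met, Myog and Pax7 were -0.85, -2.10 and -0.84. Myod1, the most abundant of the list, was at 140, 292 and 233 FPKM in WT and at 186, 146 and 105 FPKM in eIF5A-KO (log2 fold change -0.61, adjusted p = 0.794 in edgeR), and Des, which encodes desmin, was at -0.02 on that scale (adjusted p = 0.993). The log2 fold change of Myod1 was -0.85 without WT replicate 1 and -0.36 without WT replicate 2. WT replicate 1, highest for Dcn, Lum, Dpt and Dpp4, had the lowest sum of the WT group for myogenic, endothelial, mural, macrophage, Schwann cell and tendon markers, and that association was not tested. All 10 endothelial markers and all 9 mural markers were above 0 with all libraries, but without WT replicate 1 Cdh5, Notch3 and Mcam were below 0. Of the mural list Myh11, a smooth muscle myosin, passed the adjusted threshold in edgeR (log2 fold change 1.51, adjusted p = 0.0486), but not with DESeq2's size factors in edgeR (adjusted p = 0.0511) or when any library other than WT replicate 1 was left out (0.0792 to 0.315). It also failed to pass with library size alone, with at least 10 counts in every library and with limma. Of 8 tested macrophage markers 6 were above 0 (4 without WT replicate 1 or without eIF5A-KO replicate 1, and 8 without WT replicate 2). Their sums were 38.2 to 88.9 FPKM in WT and 39.1 to 112 FPKM in eIF5A-KO. Cx3cr1, which was not tested, had 0 counts in all WT libraries and 0, 3 and 2 counts in eIF5A-KO replicates 1 to 3. All 5 Schwann cell markers were above 0, or 4 of 5 without WT replicate 1 and 3 of 5 without eIF5A-KO replicate 3. Their sums were 31.7, 49.7 and 51.0 FPKM in WT and 57.3, 52.0 and 66.3 FPKM in eIF5A-KO, and the 6 tendon markers were 3 above and 3 below. No marker of these lists was at 0 in all 6 libraries.

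Among 11029 tested genes with a mean of at least 5 CPM, the 5 whose log2 CPM followed Pdgfra most closely over the 6 libraries were Prep (r = 0.952), Ikbke (0.940), D230025D16Rik (0.925), Man1b1 (0.924) and Arhgap20 (0.918), and 12 genes were above 0.9. None of them is on a list of FAP genes used here. All 5 overlapped between the groups, as Pdgfra did, and no p is given, since the genes were picked for their likeness over 6 points.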

How the data were processed

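Total RNA was extracted with TRIzol, and libraries were prepared with an NEBNext Ultra kit, which does not mark strand. The authors mapped reads to mm10 with HISAT, named DEGSeq2 for the read coverage of each gene, and deposited raw counts of reads per gene, without normalization. They also deposited a table of FPKM, scaled to gene length and library. Gene annotation, strand setting and handling of multi-mapping reads are not given in the sources used here.

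Counts were tested with edgeR 4.0.16 in R 4.3.3: filterByExpr with default limits, TMM factors, the quasi-likelihood test, two-sided (prior count 2), on all 6 libraries with no covariate. P-values were adjusted by the Benjamini-Hochberg method over 14679 genes. The threshold was an adjusted p under 0.05, and intervals are at 95%. The SE was computed as the absolute log2 fold change over the square root of the test's F statistic. Intervals were built from that SE with the t distribution. FPKM served only to compare levels, and errors are SD unless SE is named. The common biological coefficient of variation was 0.239. Counting errors cover counting alone. The script was tested on simulated data. Gene coordinates are those of the count table, and for 9 of the 10 markers GENCODE for GRCm38 has the same. Copies were searched with blastn 2.17.0 (at least 90% identity over 100 bases).

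The 10 markers, the 13 lists and the tests were chosen with earlier results of these data known. Named were the 10 markers, Eif5a, from each family or fate list and the myogenic list the 3 genes with the smallest unadjusted p and the 2 with the highest FPKM, any list gene past the adjusted threshold, and the 5 genes most like Pdgfra; the other cell type lists are given by counts and sums. Alternatives were other scaling factors, no or a stricter filter, DESeq2 1.42.0, limma 3.58.1 (voom, or log2 of FPKM plus 1 or 0.1), the replicate number as a block, and each library left out. Those for the lists and for single list genes were chosen after seeing the data.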

Additional observations from a re-analysis of the deposited data

How the results depend on the processing

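Over 17 alternatives, 0 of 10 FAP markers had an adjusted p under 0.05. The number with an unadjusted p under 0.05 was 1 in place of 0 without the low-count filter and 1 with the replicate block (Fn1 in both; log2 fold change 0.58, adjusted p = 0.759 in edgeR with the block), and ranged from 0 to 1 when libraries were left out in turn. Of 170 marker values, 164 kept their direction and 6 reversed, all when a library was left out. Left-out ranges were -0.50 to 0.20 for Dcn, -0.66 to 0.25 for Lum, -0.56 to 0.073 for Dpt (each positive only without WT replicate 1), -0.26 to 0.015 for Pdgfra (positive without eIF5A-KO replicate 1) and -0.10 to 0.26 for Thy1 (below 0 without WT replicate 3, and -0.0081 without eIF5A-KO replicate 2). The median of the markers ranged from -0.21 without eIF5A-KO replicate 2 to 0.23 without WT replicate 1.

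For the second list, the count ranged from 3 to 9 (beside 3.88% to 10.2% of all tested genes) and the median from 0.10 to 0.45 when libraries were left out. Otherwise the count ranged from 5 to 7 (beside 5.96% to 6.87% of all tested genes). Reversals of other genes with left-out libraries were those of Fap (-0.26 to 0.43), Dpp9 (-0.017 to 0.31), Ly6c2 (-2.26 to 0.47), Dpp8 (-0.30 to 0.0085, also 0.0076), Timp1 (-0.11 to 0.95, also -0.08 and -0.10) and Eif5a (-0.13 to 0.23, also -0.0090 and -0.06). Fap, at -0.05 with edgeR, was also above 0 with limma-voom (0.051), log2 of FPKM plus 1 (0.0073) or 0.1 (0.035) and the replicate block (0.032). Pdgfrb passed the adjusted threshold in edgeR without the filter (adjusted p = 0.0279), as did Met, Myog and Pax7, and Met passed with DESeq2 (0.00588) and Myog with the replicate block (0.0331). The causes were not tested.

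Over all tested genes, 3 passed the adjusted threshold, 249 without the filter, 88 with DESeq2, 24 with the replicate block, 56 without WT replicate 1, and 0 with DESeq2's size factors in edgeR, library size alone, at least 10 counts in every library, limma, or any other library left out. Same-numbered libraries of the 2 groups deviated together with r of 0.084, -0.160 and 0.105, so the replicate numbers were not taken as pairs. With 3 libraries per group, Pi16 and Dpp4 at 10 to 136 counts are the markers that depth limits most.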

Other observations

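Ratios of 2 markers to their relatives were computed, chosen after the values were seen. The ratio of Pdgfrb to Pdgfra in FPKM was 0.766, 1.11 and 1.14 in WT replicates 1 to 3 and 2.52, 1.55 and 1.75 in eIF5A-KO replicates 1 to 3, a mean log2 difference of 0.94. The beta receptor was the lower of the pair in WT replicate 1 and the higher in the other 5 libraries, and all eIF5A-KO ratios were above all WT ratios. The ratio of Bgn to Dcn was 0.537, 1.24 and 0.997 in WT and 1.95, 1.47 and 1.80 in eIF5A-KO, a mean log2 difference of 0.99. Without WT replicate 1 these differences were 0.76 for Pdgfrb to Pdgfra and 0.64 for Bgn to Dcn. No test is given, since the ratios were picked for their separation.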
